A study of Caenorhabditis elegans with 2 samples.

Results

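The cuticle collagen genes of Caenorhabditis elegans were examined for peaks of PAG-3 in whole larvae. Members were all protein-coding genes named col followed by a number, together with rol-6, rol-8, sqt-1, sqt-2, sqt-3, bli-1, bli-2 and the collagen genes of the dpy series, 174 of 19973 protein-coding genes. The rule used names and no measured value, but members were chosen with earlier results of these data known. They comprised 156 numbered col genes and 18 genes named for a visible phenotype. The name rule was not a test of protein type, and col-99, known as a transmembrane collagen, was kept under it.

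PAG-3, a zinc finger transcription factor related to vertebrate Gfi1, was mapped by chromatin immunoprecipitation with sequencing (ChIP-seq). All animals were hermaphrodites of strain OP154, which carried the unc-119(ed3) mutation and the integrated transgene wgIs154, expressing PAG-3 with a GFP and FLAG tag at its C-terminus. Chromatin was precipitated through the GFP tag from starved larvae of the first stage (L1), 6 hours after synchronization, and 2 biological replicates made up 1 group. No control sample was analysed here. The peaks are those of the tagged transgene product in whole animals, so strong binding in few cells and weaker binding in many cells cannot be told apart, and no tissue can be checked from the lists.

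Cuticle collagens are small secreted proteins with repeated Gly-X-Y stretches, which epidermal cells fold into triple helices, cleave and crosslink into the exoskeleton. A new cuticle is made at each moult, and many collagen genes are transcribed in short bursts in the epidermis during that time. Mutations in single members can leave worms dumpy, rolling, squat or blistered, while most numbered col genes have no named phenotype. PAG-3 is known mainly from neurons, where it acts in touch neurons and in lineages of the ventral cord.

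Thresholded peaks were found at the starts of 10 of the 174 collagen genes. These were col-159, col-160, col-42, col-93, col-103, col-10, col-117, col-3, col-166 and col-181, and all of them are numbered col genes. A gene was called marked when a summit of the deposited set of reproducible peaks, thresholded by the irreproducible discovery rate (IDR), lay from 1000 bp upstream to 200 bp downstream of its start. The 10 genes make up 5.75% of the collagens, and 2.56% of all protein-coding genes were marked in the same way. Because col-159 shared a summit with col-160 and col-117 shared one with col-3, the 10 genes rest on 8 distinct summits. The share of collagens was not tested against that of other genes.

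The 8 summits are shown by their sequence because they carry every thresholded call of the family. Each line gives 101 bases centred on the summit, from 5′ to 3′ on the strand named, on assembly ce11 from the RefSeq genome. Capitals mark any of 5 words of 6 letters on either strand. AATCAC is the core of the Gfi1 site of vertebrates, and GATAAG is a form of the site of GATA factors. The word GAGAGA was included for its frequency at PAG-3 summits genome-wide. The same reason applied to the word ATGGCA and to the word GACGCA.
col-159/col-160, chrV:13202290-13202390, - strand: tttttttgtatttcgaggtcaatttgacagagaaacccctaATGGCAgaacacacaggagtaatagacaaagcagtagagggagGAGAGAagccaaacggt
col-42, chrV:18637700-18637800, + strand: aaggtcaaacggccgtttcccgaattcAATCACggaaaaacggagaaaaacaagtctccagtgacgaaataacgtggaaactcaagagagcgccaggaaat
col-93, chrIII:10985818-10985918, - strand: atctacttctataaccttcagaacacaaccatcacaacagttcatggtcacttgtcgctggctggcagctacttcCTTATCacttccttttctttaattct
col-103, chrIV:763931-764031, - strand: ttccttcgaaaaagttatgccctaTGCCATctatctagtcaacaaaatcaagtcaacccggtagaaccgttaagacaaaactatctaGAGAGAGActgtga
col-10, chrV:9165508-9165608, - strand: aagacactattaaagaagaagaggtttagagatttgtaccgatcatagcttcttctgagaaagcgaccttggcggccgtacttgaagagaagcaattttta
col-117/col-3, chrIV:8824497-8824597, + strand: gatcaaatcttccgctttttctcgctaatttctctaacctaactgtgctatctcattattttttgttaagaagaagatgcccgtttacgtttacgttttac
col-166, chrX:6279635-6279735, + strand: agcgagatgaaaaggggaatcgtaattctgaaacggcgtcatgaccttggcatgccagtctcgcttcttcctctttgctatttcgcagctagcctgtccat
col-181, chrX:12104723-12104823, + strand: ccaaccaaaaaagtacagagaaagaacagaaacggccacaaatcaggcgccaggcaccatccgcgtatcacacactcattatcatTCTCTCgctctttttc

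GAGAGA occurred at 3 of these 8 summits, those of col-159/col-160, col-103 and col-181. Of all 910 thresholded summits 28.8% held this word within the same 101 bases, and of 101-base windows centred 250 bp upstream of all 19973 starts 6.48% did. ATGGCA was found at 2 summits, those of col-159/col-160 and col-103, against 15.2% of all thresholded summits and 3.18% of the windows upstream of starts. The summits of col-159/col-160 and col-103 were thus the pair that held both words. In col-103, 2 overlapping copies of GAGAGA made the run of capitals longer than 6 letters. AATCAC was present at the col-42 summit alone (5.05% of all thresholded summits, 5.74% of windows upstream of starts). GATAAG was present at the col-93 summit alone (6.59% and 4.41%), and GACGCA at none of the 8 (11.98% and 2.79%). The summits of col-10, col-117/col-3 and col-166 held none of the 5 words. With 8 summits, these counts are a description. The GC content of the 8 sequences ran from 34.7% at col-117/col-3 to 49.5% at col-166, with a median of 41.6%, beside a median of 43.6% over all thresholded summits and 33.7% in the windows upstream of starts.

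The highest collagen peak was the one shared by col-159 and col-160 on chromosome V. Its summit at 13202340 had a pooled signal of 202.1, rank 42 among the 30000 regions called on both replicates together. The pooled signal is the height given by the authors' peak caller, on a scale that is not stated, and is used here only to order regions within a list. In replicate 1 the matching region had a signal of 142.1 and rank 44, and in replicate 2 a signal of 56.0 and rank 40. Both replicates therefore placed it near the top of their own lists. The gene models of col-160 (WBGene00000733, 13200982 to 13202189) and col-159 (WBGene00000732, 13198231 to 13202177) overlap on the minus strand, and their outer starts lie 12 bp apart. The summit was intergenic, 151 bp upstream of col-160 and 163 bp upstream of col-159. The innermost annotated transcript of col-159 starts at 13199317, and from that start the window held no thresholded summit, so the call for col-159 rests on its longer gene model.

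The next highest collagen peaks, at col-42 and col-93, also had pooled signals above 100. At col-42 (WBGene00013489, plus strand of chromosome V, 18638484 to 18639591) the summit at 18637750 had a pooled signal of 120.5 and rank 101. Its matching regions ranked 127 in replicate 1 (signal 80.6) and 83 in replicate 2 (signal 37.7). With 734 bp to the gene start, it was the most distant of the marked collagens. At col-93 (WBGene00000668, minus strand of chromosome III, 10984552 to 10985609) the summit at 10985868 lay 259 bp upstream, with a pooled signal of 107.6 and rank 126. Its matching region had a signal of 83.3 in replicate 1 and of 25.1 (rank 237) in replicate 2. This summit also lay in an intron of dhc-4, a gene for a dynein heavy chain on the plus strand, within whose span col-92, col-93 and col-94 are annotated.

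The next group of marked collagens had pooled signals from 63.3 to 70.9. The col-103 summit (WBGene00000677, chromosome IV, 762413 to 763678, minus strand) lay at 763981, 303 bp upstream, with a pooled signal of 70.9. It ranked 781 in replicate 1 (signal 33.5) and 146 in replicate 2 (signal 30.2), so the second replicate placed it higher in its list. The reverse held for col-10 (WBGene00000599, chromosome V, 9164292 to 9165307, minus strand), a gene whose promoter is in common use to drive transgenes in the epidermis. Its pooled summit at 9165558, 251 bp upstream, had a signal of 65.3 and ranked 275 in replicate 1 (signal 53.8). No region of replicate 2 had a summit within 100 bp of it, and the highest replicate 2 region in the col-10 window had its summit 128 bp upstream of the start, with a signal of 16.7 and rank 1014. By the 100 bp rule the col-10 summit was therefore matched in replicate 1 only, although replicate 2 listed that region in the same window.

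A single summit lay between col-117 and col-3, which are divergently transcribed on chromosome IV. It was at 8824547, with a pooled signal of 63.3, 352 bp upstream of col-117 (WBGene00000691, 8822962 to 8824195, minus strand) and 236 bp upstream of col-3 (WBGene00000594, 8824783 to 8826013, plus strand). It ranked 551 in replicate 1 (signal 39.7) and 245 in replicate 2 (signal 24.8). The lists cannot assign this peak to either gene. Of the 32-base words in each of these promoter windows, 53.2% occurred more than once in the genome, the highest share of any collagen window, but within 170 bp of the summit none did.

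The lowest marked collagens lay on the X chromosome, close to the threshold. The col-166 summit (WBGene00000739, 6280016 to 6280921, plus strand) was at 6279685, 331 bp upstream, with a pooled signal of 45.0 and rank 830. It ranked 1234 in replicate 1 (signal 27.5) and 722 in replicate 2 (signal 18.2). The col-181 summit (WBGene00000754, 12104930 to 12106102, plus strand) was at 12104773, 157 bp upstream, with a pooled signal of 44.8 and rank 841. It ranked 885 in replicate 1 (signal 31.6) and 3301 in replicate 2 (signal 12.5), and its position also fell in the promoter window of W03G11.3. The lowest of the 910 thresholded peaks had a signal of 43.4. Over the 8 summits the median signal was 68.1, beside 58.3 over the other 902 thresholded peaks.

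**Figure D1:**
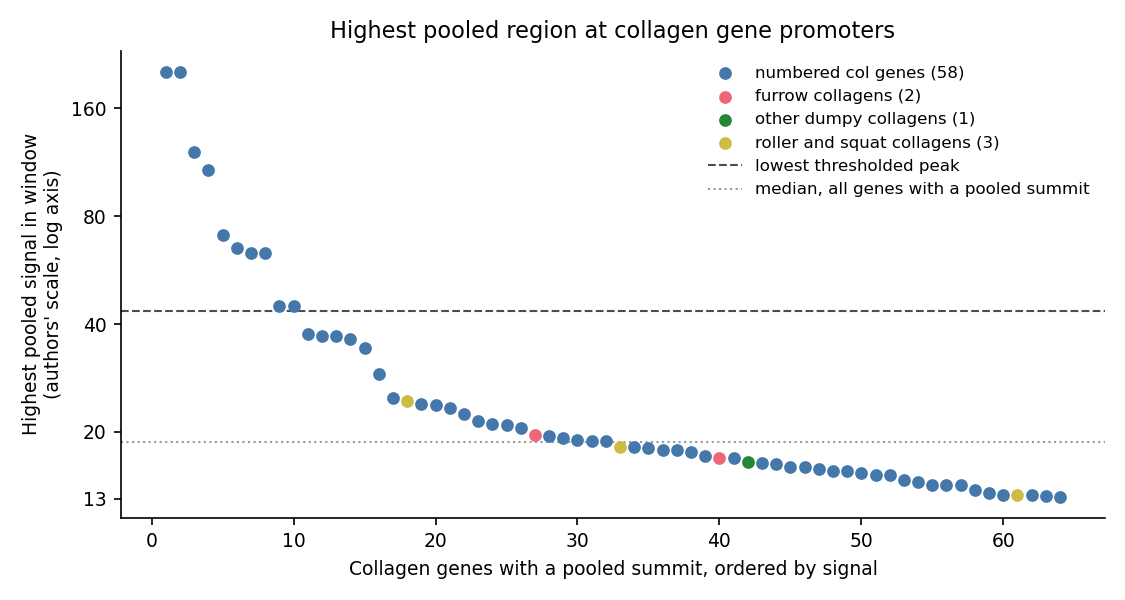
Highest pooled signal in the promoter window (log axis, authors' scale) for each of the 64 collagen genes with a pooled summit, ordered by signal and coloured by role, with the lowest thresholded peak (dashed, 43.4) and the median over all genes with a pooled summit (dotted, 18.7). All 10 genes above the dashed line are numbered col genes, the first 2 points are col-159 and col-160 with 1 shared summit, and a gap separates the marked genes from col-91 at 37.6.

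Below the threshold, 5 further collagens had a pooled region among the highest 2000. These were col-91 (37.6), col-167 (37.12), col-184 (37.08), col-98 (36.4) and col-80 (34.3). Of these, col-184 had a matching region in both replicates at moderate ranks, 3109 and 1200. At col-80 the match ranked 1433 in replicate 1 (signal 25.7) and 29873 in replicate 2 (signal 6.05), close to the end of the list. For col-91, col-167 and col-98 only replicate 1 had a match, at ranks 1317, 2189 and 775. The other 5 of the 10 highest unmarked members were col-144 (29.0), col-139 (24.9), sqt-2 (24.4), col-38 (23.9) and col-142 (23.8). At col-144 the match was in replicate 2 alone, at rank 575. The col-139 match ranked 7394 in replicate 1 and 7568 in replicate 2. Summits at col-139 and col-38 also lay in the windows of F41F3.1 and of rpl-5, which encodes a ribosomal protein.

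Over the whole family, regions of any height were about as common as at other genes. A pooled summit lay in the window of 64 of 174 collagens (36.8%), beside 40.6% of all protein-coding genes. The highest signal per gene ranged from 13.2 to 202.1 with a median of 18.5, beside a median of 18.7 over the 8101 genes with a pooled summit. The interquartile range ran from 15.5 to 25.9 for collagens and from 15.5 to 25.1 for all genes. Of the collagens with a pooled summit, 15.6% were marked, beside 6.31% of all genes with one. In lower bands of the list, 5 collagens (2.87%) had their highest region between ranks 911 and 2000, beside 3.03% of all genes, and 5 (2.87%) past rank 2000 and up to rank 5000, beside 6.14%. In the lists of single replicates, a summit of any height lay in the window of 62 collagens in replicate 1 (all genes 40.2%) and of 65 in replicate 2 (all genes 39%). No summit was listed for 73 collagens (41.95%) in any of the 3 lists, the pooled list and those of both replicates, and for 40.3% of all genes.

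None of the 18 collagens named for a phenotype held a thresholded summit in its window, a count too small to set apart from the 2.56% of all genes. Among the furrow collagens, whose products lie in the circumferential furrows of the cuticle and which include dpy-7 and dpy-10, 2 of 6 had a pooled region. At dpy-10, a gene widely used as a marker in genome editing, it had a signal of 19.6 and rank 9524, and at dpy-2 a signal of 16.9 and rank 15444. The dpy-10 summit also lay in the window of T14B4.19, whose start was nearer, and had a match in replicate 1 alone. The dpy-2 summit lay in a coding exon of dpy-2, and neither replicate list held a summit in the dpy-2 window. The windows of dpy-3, dpy-7, dpy-8 and dpy-9 held no pooled summit. Low regions in lists of single replicates lay at dpy-3 (rank 15780 in replicate 1 and 12026 in replicate 2) and at dpy-9 (rank 29513 in replicate 2).

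Among the other dumpy collagens 1 of 5 had a pooled region, dpy-4, with a signal of 16.5. In replicate 1 the highest region in the dpy-4 window ranked 4785, and replicate 2 listed none there. No pooled summit lay in the windows of dpy-5, dpy-13, dpy-14, a collagen of the embryo, or dpy-17. The roller and squat collagens had regions at 3 of 5 genes. These were sqt-2 (signal 24.4, 963 bp upstream), sqt-3 (18.2, 198 bp upstream) and rol-8 (13.4, 967 bp upstream). At sqt-3, whose product is known to act together with that of dpy-17, the highest region in the window ranked 22129 in replicate 1 and 2294 in replicate 2. Neither rol-6, the source of the dominant roller marker of many transgenic lines, nor sqt-1 had a pooled region, and none lay at the strut collagens bli-1 and bli-2. Of the 18 genes 6 had a pooled summit (33.3%, beside 40.6% of all genes), with a median signal of 17.6.

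Replicate support was examined at the 62 distinct pooled summits that were the highest in a collagen window. Of the 8 thresholded ones, 7 had a region within 100 bp in both replicates and the remaining 1, at col-10, in replicate 1 only. Over all genes 342 of the 406 distinct thresholded summits that were the highest in a window (84.2%) matched in both. Of the 54 collagen summits below the threshold, 10 matched in both replicates (18.5%), 20 in replicate 1 only, 15 in replicate 2 only and 9 in neither. The corresponding share over all genes was 24.6% of 6614 summits. Most marked collagen summits were therefore found in both replicates, and most of the others in at most 1. The thresholded set came from the authors' IDR step and equals the 910 pooled regions of highest signal, called on both replicates together. It was thus drawn from these same 2 replicates, so this difference is no separate support. When each replicate was taken alone with as many of its highest regions as the thresholded set holds, replicate 1 marked 10 collagens (all genes 2.47%) and replicate 2 marked 9 (all genes 2.53%). Replicate 1 added col-98 and lost col-166. Replicate 2 added col-144 and lost col-10 and col-181.

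**Figure D2:**
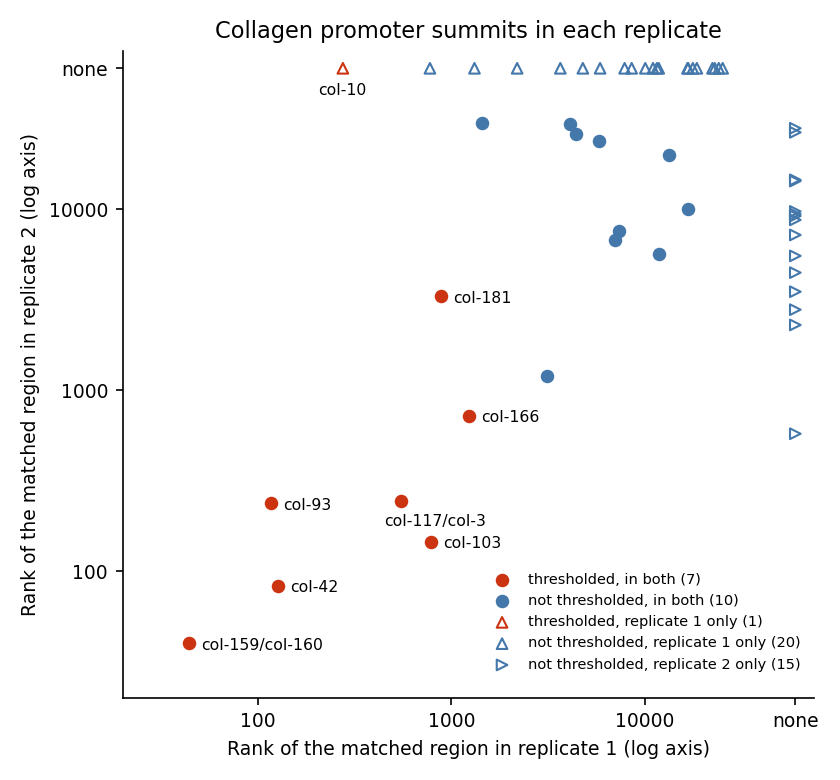
Rank of the region matched within 100 bp of each collagen promoter summit in replicate 1 (x axis) and replicate 2 (y axis), both on log axes, where 1 is the highest signal. Filled points matched in both replicates, and open triangles at "none" matched in 1. The 9 summits matched in neither replicate are not drawn. The 7 thresholded summits with a match in both (red) are led by col-159/col-160 at 44 and 40. Of these, col-166 ranks 1234 in replicate 1 and col-181 ranks 3301 in replicate 2. The col-10 summit has no match in replicate 2.

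Summits at the marked collagens lay at a short distance upstream of the start. The distance ran from 151 to 734 bp with a median of 255 bp, and 9 of the 10 lay within 500 bp. The median over the 511 marked genes of the genome was 251 bp, and 70.5% of these summits lay within 500 bp upstream. The medians of collagens and of all marked genes were thus close. Over the 64 collagens with a pooled region the median distance was 283 bp and the range ran from 999 bp upstream to 173 bp downstream, beside a median of 318 bp over all genes with one. No thresholded summit lay inside the gene model of any collagen.

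**Figure D3:**
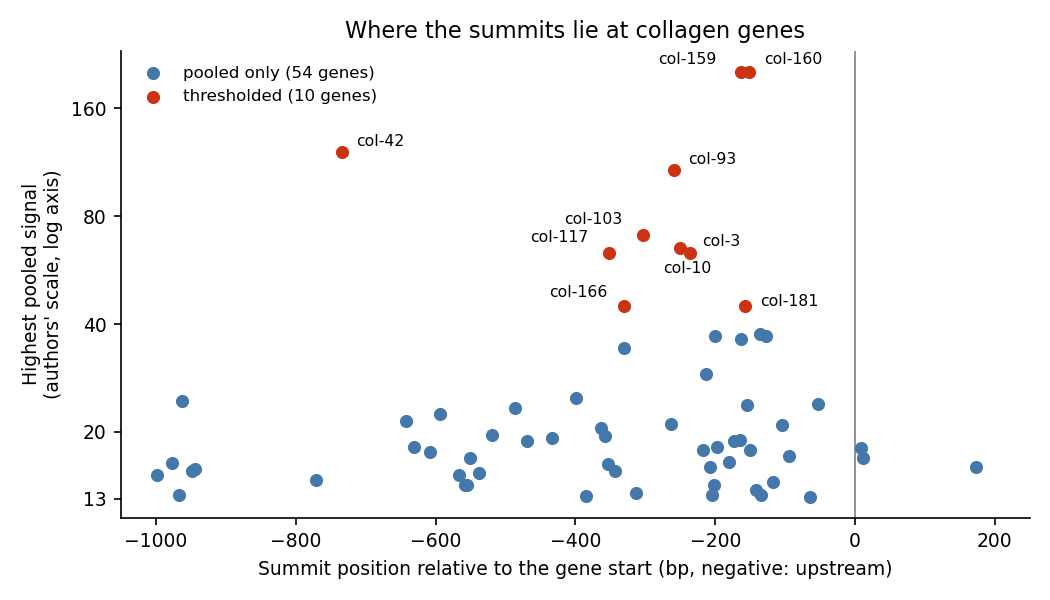
Position of the highest pooled summit relative to the gene start (x axis, bp, negative upstream) against its signal (log axis, authors' scale) for the 64 collagen genes with a pooled summit. The thresholded genes (red) lie between 151 and 352 bp upstream except col-42 at 734 bp, while the pooled-only genes (blue) spread over the window.

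Many collagen genes lie next to each other, and 48 of the 174 had a collagen as an adjacent protein-coding gene, in 28 adjacent pairs. Both genes of a pair were marked in 2 pairs, col-159 with col-160 and col-117 with col-3, and in both pairs they were marked by the same summit. With the 1000 bp window, no pair of neighbours carried 2 separate thresholded summits. In 3 pairs 1 gene was marked and the other was not. These were col-93 with col-92, col-93 with col-94, and col-10 with col-145. In all, 6 of the 48 collagens with an adjacent collagen were marked, through 4 distinct summits, and 4 of the other 126, beside 2.56% of all genes.

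Values within the runs around col-93, col-10 and col-166 are given in turn. The starts of col-92 and col-94 lie 2356 and 2264 bp from that of col-93. The col-92 window held a region of signal 19.2 (rank 10252) and the col-94 window none. A second thresholded peak of this run lay outside the windows, 1887 bp upstream of col-94, with a signal of 79.1 and rank 225. Its nearest protein-coding start was that of col-94, but its summit lay within the small nuclear RNA gene R07E5.16. With a window of 2000 bp, col-93 and col-94 were therefore neighbours marked by separate summits. On chromosome V, the starts of col-144 and col-145 lie 4665 and 2302 bp from that of col-10. The col-144 window held the region of signal 29.0 and the col-145 window none. On the X chromosome, col-167 to col-171 form a run of 5 genes whose first start lies 43472 bp from that of col-166. In this run col-167, col-169, col-170 and col-171 had pooled regions of 37.1, 23.4, 17.8 and 15.2, and col-168 had none. All of these regions in the run from col-167 to col-171 lay below the threshold.

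**Figure D4:**
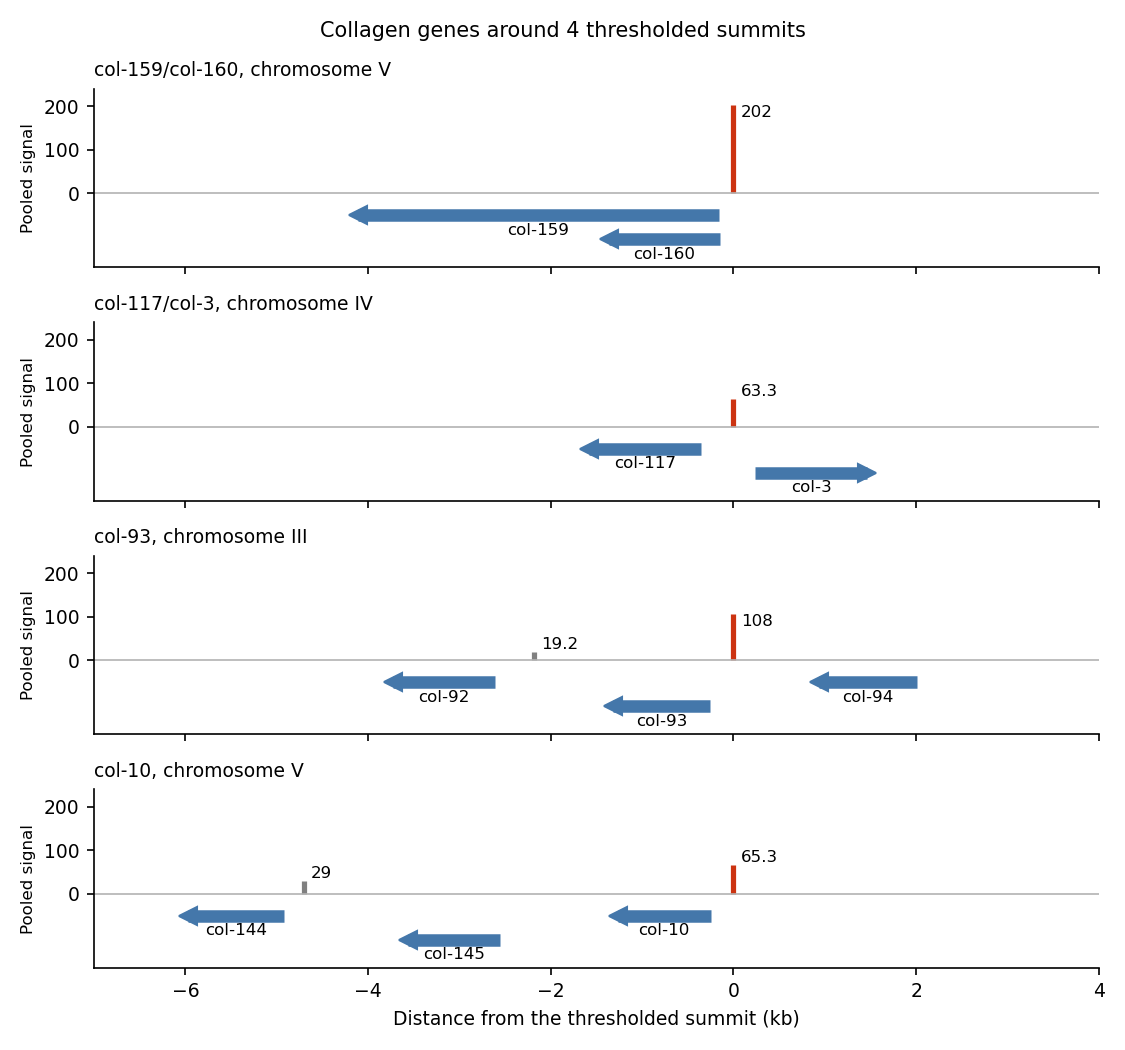
Collagen genes (arrows, pointing in the direction of transcription) around 4 thresholded summits, with distance from the summit in kb on the x axis. Bars give the highest pooled signal in each collagen window (red, thresholded; grey, below the threshold) on the authors' scale, and other peaks are not drawn. A shared summit serves col-159 with col-160 (202) and col-117 with col-3 (63.3), while the bars at col-92 (19.2) and col-144 (29.0) are far lower than those of col-93 (108) and col-10 (65.3).

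Repeated sequence was checked at the collagen windows. Reads from repeated sequence can be lost or misplaced, so 32-base words occurring more than once on the nuclear chromosomes were counted. They made up over 10% of the promoter window in 17 of 174 collagens (9.77%), beside 14.2% of all genes. Such windows numbered 6 of the 64 collagens with a pooled region and 11 of the 110 without one. None of the 8 marked summits had such a word within 170 bp. The read length was not known, so the word length is only a stand-in.

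The marked collagens were spread over chromosomes III (1 of 13 collagens), IV (3 of 44), V (4 of 32) and X (2 of 30). Of all genes on these chromosomes, 3.56%, 1.74%, 1.86% and 3.44% were marked, in that order. On chromosome V, 18 of 32 collagens had a pooled region, beside 36.7% of all genes of that chromosome. On chromosome I, 2 of 23 collagens had one and none was marked, beside 43.6% of all genes there with a pooled region and 3.2% marked. Chromosome II, which carries 8 of the 18 collagens named for a phenotype, had pooled regions at 11 of 32 collagens and no marked one. Of all genes on chromosome II, 37.9% had a pooled region and 2.35% were marked. No test was made of these differences between chromosomes.

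Genes that act with the cuticle collagens were examined as lists, beside 2.56% of all genes marked and 40.6% with a pooled region. The lists are too short for a count of 0 marked genes to differ from that background. Of 14 genes for the folding, cleavage and crosslinking of collagen, 8 had a pooled region and none a thresholded summit. The highest was at dpy-31, which encodes a protease that processes collagens, with a signal of 30.4, followed by bli-4, a proprotein convertase, at 24.0. The prolyl 4-hydroxylase genes phy-2 and dpy-18 had signals of 13.3 and 13.7, near the bottom of the list. Of 15 other genes of the cuticle and apical matrix, 5 had a pooled region, led by dpy-6 at 23.6. Basement membrane collagens, which are made for a different matrix, had regions below the threshold at all 3 genes. These were let-2 (30.6), emb-9 (22.0) and cle-1 (13.98), beside a median of 18.7 over all genes with a pooled summit. Of the other 2 cuticle collagens examined, bli-6 had a region of 32.04 and lon-3 none. The bli-6 and cle-1 regions had a match in neither replicate, while those of let-2 and dpy-31 had one in both.

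Regulators of the epidermis, of moulting and of larval timing were marked at 3 of 12 genes. The peak at myrf-1, which encodes a membrane-bound transcription factor needed for larval progress, had a pooled signal of 75.4 with its summit 263 bp upstream. It had a match at rank 138 in replicate 2 and none within 100 bp in replicate 1. At lin-14, a heterochronic gene that specifies early larval fates, the summit in the window had a signal of 53.8 at 192 bp upstream, with ranks of 398 and 4914. A higher thresholded peak of 213, rank 40, lay 1953 bp downstream of the lin-14 start, outside the window. At nhr-25, a nuclear receptor gene of the epidermis and moulting, the signal was 48.1 at 260 bp upstream, with ranks of 1084 and 835. The windows of nhr-23 (17.2), grh-1 (23.5) and elt-1 (13.2) held regions below the threshold. Those of lin-29, blmp-1, bed-3, elt-3, lin-26 and lin-42 held none. The background share for this call is the same 2.56%, and a list of 12 genes allows no statement about the list.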

How the data were processed

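PAG-3 ChIP-seq was analysed from the peak lists of 2 biological replicates in 1 group. The deposited lists, made by the authors on ce11, held 30000 regions for each replicate and for both together, which per the file headers hold both peaks and background for the IDR step. The deposited thresholded set held 910 peaks and was the same as the 910 regions of highest signal in the pooled list. The deposited signal is the height given by the authors' caller. No source used here names the aligner or the caller. Replicate numbers came from the labels. The lists give no read counts, so depth is unknown and no interval was computed. The lists on ce10 were not used.

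Gene models were those of Ensembl release 115 (WBcel235, equal to ce11; all regions lay within its chromosomes), with 1 start per gene at the outer end of its model, and sequence from the RefSeq genome of that assembly. Coordinates count from 1. Each gene was given the pooled region of highest signal with its summit in the window, and regions of single replicates were matched within 100 bp of that summit. Window assignment was tested on simulated data. Python 3.11.15, numpy 2.4.6 and pandas 2.3.3 were used.

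Members and lists were chosen with earlier results of these data known. The text names every marked member, the 10 unmarked members of highest signal, all members named for a phenotype, and the members next to a marked one. Chromosomes, members of other runs and the peaks beyond the windows were named after their values were seen. With 1 group and no control, no test was run.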

Additional observations from a re-analysis of the deposited data

How the results depend on the processing

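The count of 10 marked collagens stayed between 8 and 12 under every alternative tried for it. The share of all genes moved between 1.23% and 3.67%. With a window of 500 bp it was 9 (losing col-42), beside 1.96% of all genes. With one of 2000 bp it was 12 (adding col-81 and col-94), beside 3.58%. It was 10 without replicate 2 (all genes 2.47%) and 9 without replicate 1 (all genes 2.53%). With each peak given to the nearest start within 5000 bp it was 10, with col-94 and col-105 in place of col-117 and col-159, and all genes then stood at 3.67%. The innermost transcript start, an alternative chosen after seeing the data, removed col-159 and left 9, beside 2.39% of all genes. Among the 455 thresholded peaks of highest signal 8 remained, without col-166 and col-181, beside 1.23% of all genes. The count of 64 collagens with a pooled region was 62 without replicate 2 (all genes 40.2%) and 65 without replicate 1 (all genes 39%). It was 47 with the 500 bp window (all genes 28.6%), 83 with the 2000 bp window (all genes 56.3%) and 20 among the highest 5000 regions (all genes 11.7%), since fewer regions were used. The median signal was 18.5 in the main setting, beside 18.7 over all genes. It was 19.2 with the 500 bp window (all genes 18.9) and 18.9 with the 2000 bp window (all genes 18.9). Collagens were thus below all genes in the main setting and above them with the 500 bp window. Marked collagens with a marked neighbour numbered 4, and 6 with the 2000 bp window. No paired analysis was possible because there is 1 group. Read depth is unknown, so absence of a summit says only that none was listed.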

Other observations

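Beyond the promoter windows, 20 thresholded peaks lay within 5 kb of a collagen gene model, near 20 collagens of which 18 were unmarked. No matching count was made over all genes, so these counts are a description and cannot be set against a background. For 4 of these 20 peaks the nearest protein-coding start was that of a collagen. The highest of those 4 had a signal of 155.7 and rank 55, with an intergenic summit at 1362003 on chromosome IV, 2778 bp upstream of col-105. Another, with a signal of 79.1 and rank 225, lay 1887 bp upstream of col-94 at 10989760 on chromosome III, in an intron of dhc-4 and within the small nuclear RNA gene R07E5.16. The other 2 were the col-93 and col-10 summits, seen from neighbouring collagens. The tallest peaks near a collagen, of 305 and 277, lay beside col-35 on chromosome I, and their nearest starts were those of C15A11.2 and of unc-15, which encodes paramyosin of muscle. At col-167 a thresholded peak of 88.8 lay 2520 bp upstream, nearest to the start of chtb-3, while the region in the col-167 window was below the threshold.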
